A study of Mus musculus with 38 samples.

Results

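Liver sinusoids are lined by a specialised endothelium that has pores and lacks a continuous basement membrane, and that removes waste molecules from blood by scavenger receptors. The genes described here are 10 markers of that endothelium, namely Lyve1, Pecam1, Stab1, Stab2, Clec4g, Kdr, Cdh5, Tek, Fcgr2b and Eng. They were taken by symbol from a table of 21954 genes measured by RNA sequencing of whole mouse liver, and all 10 were found. Stab1, Stab2, Lyve1 and Fcgr2b encode receptors that take up hyaluronan, modified proteins or immune complexes. Clec4g encodes a C-type lectin. Kdr (the main VEGF receptor), Tek (the angiopoietin receptor) and Eng (a coreceptor for BMP9 and TGF-beta) sense growth factors, and Pecam1 and Cdh5 encode adhesion molecules of the junctions between endothelial cells. Some of these genes are also read in other cells, such as Fcgr2b in macrophages and Lyve1 in lymphatic vessels.

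The study compared livers of wild-type C57BL/6 female mice fed ad libitum (AL), kept on calorie restriction (CR) or fasted. There were 3, 2, 3 and 3 AL libraries at 0, 6, 14 and 22 h, 2, 3, 3 and 4 CR libraries at the same times, and 3 fasted libraries at each of 6, 14 and 22 h. A further 3 CR livers were taken after a meal and 3 after a missed meal, both labelled ZT18. What the hours are counted from is not given in the sources used here. The labelled ages run from 5 to 44 months, no age is given to more than 1 sample and they rise along the order of the samples, so age and group cannot be told apart. Whether these labels hold the true ages is uncertain, and they were not used. Nothing in the labels says whether libraries of a group came from separate mice, so p-values measure the spread between these libraries. The 38 libraries held 17131292 to 30152277 counts each. The clock genes of 2 libraries (AL 0 h replicate 2 and AL 22 h replicate 2) went against their labelled time. In 5 others, all of them replicate 3 (AL 0 h, CR 6 h, CR 14 h, CR 22 h and fed CR), expression was closest to a group of another diet. For comparisons of 2 groups, counts of called members that change without these libraries are given with both values.

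All 10 genes passed the filter on low counts, as did 13786 genes in all, and every one was detected in every library. The lowest value of any member was 6 counts, for Lyve1 in an AL liver at 14 h. On the authors' rescaled TPM, which accounts for transcript length and allows genes to be compared, the level of Clec4g was the highest of the 10 in each of the 13 groups (56.3 ± 18.0, mean and SD over 38 libraries). Fcgr2b came next (35.6 ± 8.18) followed by Eng (26.3 ± 5.15), again in every group. Stab1 lay at 12.2 ± 2.57, Kdr at 8.00 ± 2.34, Cdh5 at 7.30 ± 2.21, Pecam1 at 7.00 ± 2.17, Stab2 at 5.17 ± 1.57, Lyve1 at 4.97 ± 4.60 and Tek at 2.75 ± 0.806. The levels of Kdr, Cdh5 and Pecam1 differed by less than their SDs, as did those of Stab2 and Lyve1. Lyve1 alone of the 10 had an SD close to its mean, with values from 0.158 to 23.6.

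The genes lie on 9 chromosomes of GRCm38 (GENCODE vM21). Lyve1 is at chromosome 7, 110850607 to 110863239, with 6 exons in its longest transcript. Pecam1 is at chromosome 11, 106654217 to 106750628. Stab1 (chromosome 14, 31139013 to 31168641) and Stab2 (chromosome 10, 86841198 to 87008025) have 69 exons each. Clec4g (3707064 to 3720651) and Cdh5 (104101625 to 104144511) share chromosome 8. Kdr is at chromosome 5, 75932827 to 75978458, Tek at chromosome 4, 94739289 to 94874976, Fcgr2b at chromosome 1, 170958617 to 170976547, and Eng at chromosome 2, 32646595 to 32682669. Their lengths differ widely. Among the genes tested, the effective length of Clec4g stood at percentile 11.8 and that of Fcgr2b at percentile 28.7, whereas Tek stood at 82.2, Kdr at 92.0 and Stab2 at 97.7.

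Promoter windows were read for 7 of the members from RefSeq (build GRCm38.p6), as the 250 bases before the gene start, and searched on both strands for 5 short motifs. ETS factors, a family that includes regulators of endothelial genes, bind cores such as AGGAAG. That motif was in 4 of 7 members (Eng, Clec4g, Stab2 and Stab1), against 29.5% of 32851 windows. A variant of the ETS core, CGGAAG, was in 1 member (Stab1), against 13.6% of windows. The GATA factor motif searched was AGATAA, held by none of the 7 windows and by 9.99% of all windows. The E-box bound by clock factors and other bHLH factors was searched as CACGTG, held by none of the 7 and by 6.02% of all. The forkhead motif, of a family that includes the fasting-responsive FOXO proteins, was searched as TGTTTAC, held by none of the 7 and by 3.17% of all. Shown here are the windows that overlap no annotated exon, with matches to either ETS motif on either strand in capitals. They belong to Stab1, Eng and Tek, called higher in fasted livers at 14 h as described next, and to Clec4g, which was not. Each is written on the strand of its gene, 5′ to 3′. A match is a description of the letters and not a shown binding site.
Stab1 (chr14:31168642-31168891, minus strand): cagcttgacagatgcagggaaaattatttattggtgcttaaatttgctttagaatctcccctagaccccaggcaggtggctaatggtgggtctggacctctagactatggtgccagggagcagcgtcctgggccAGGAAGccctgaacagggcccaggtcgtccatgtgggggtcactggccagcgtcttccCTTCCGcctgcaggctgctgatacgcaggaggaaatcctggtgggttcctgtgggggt
Eng (chr2:32646345-32646594, plus strand): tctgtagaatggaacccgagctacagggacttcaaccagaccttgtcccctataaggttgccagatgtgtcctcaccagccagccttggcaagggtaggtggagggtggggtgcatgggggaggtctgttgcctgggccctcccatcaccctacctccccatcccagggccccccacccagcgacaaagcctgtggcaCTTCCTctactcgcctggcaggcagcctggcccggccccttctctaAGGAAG
Tek (chr4:94739039-94739288, plus strand): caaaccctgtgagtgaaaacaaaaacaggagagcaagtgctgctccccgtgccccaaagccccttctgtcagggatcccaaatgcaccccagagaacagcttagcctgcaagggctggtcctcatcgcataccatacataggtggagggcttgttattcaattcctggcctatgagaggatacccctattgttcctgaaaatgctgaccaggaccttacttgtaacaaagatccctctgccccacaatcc
Clec4g (chr8:3720652-3720901, minus strand): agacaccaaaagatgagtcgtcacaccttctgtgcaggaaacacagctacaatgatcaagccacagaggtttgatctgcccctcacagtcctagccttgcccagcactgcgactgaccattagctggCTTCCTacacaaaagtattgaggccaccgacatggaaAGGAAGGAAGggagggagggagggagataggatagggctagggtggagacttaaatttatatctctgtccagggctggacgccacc
Clec4g held 3 matches, of which 2 overlap, Stab1 and Eng held 2 each, and Tek held none.

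**Figure D1:**
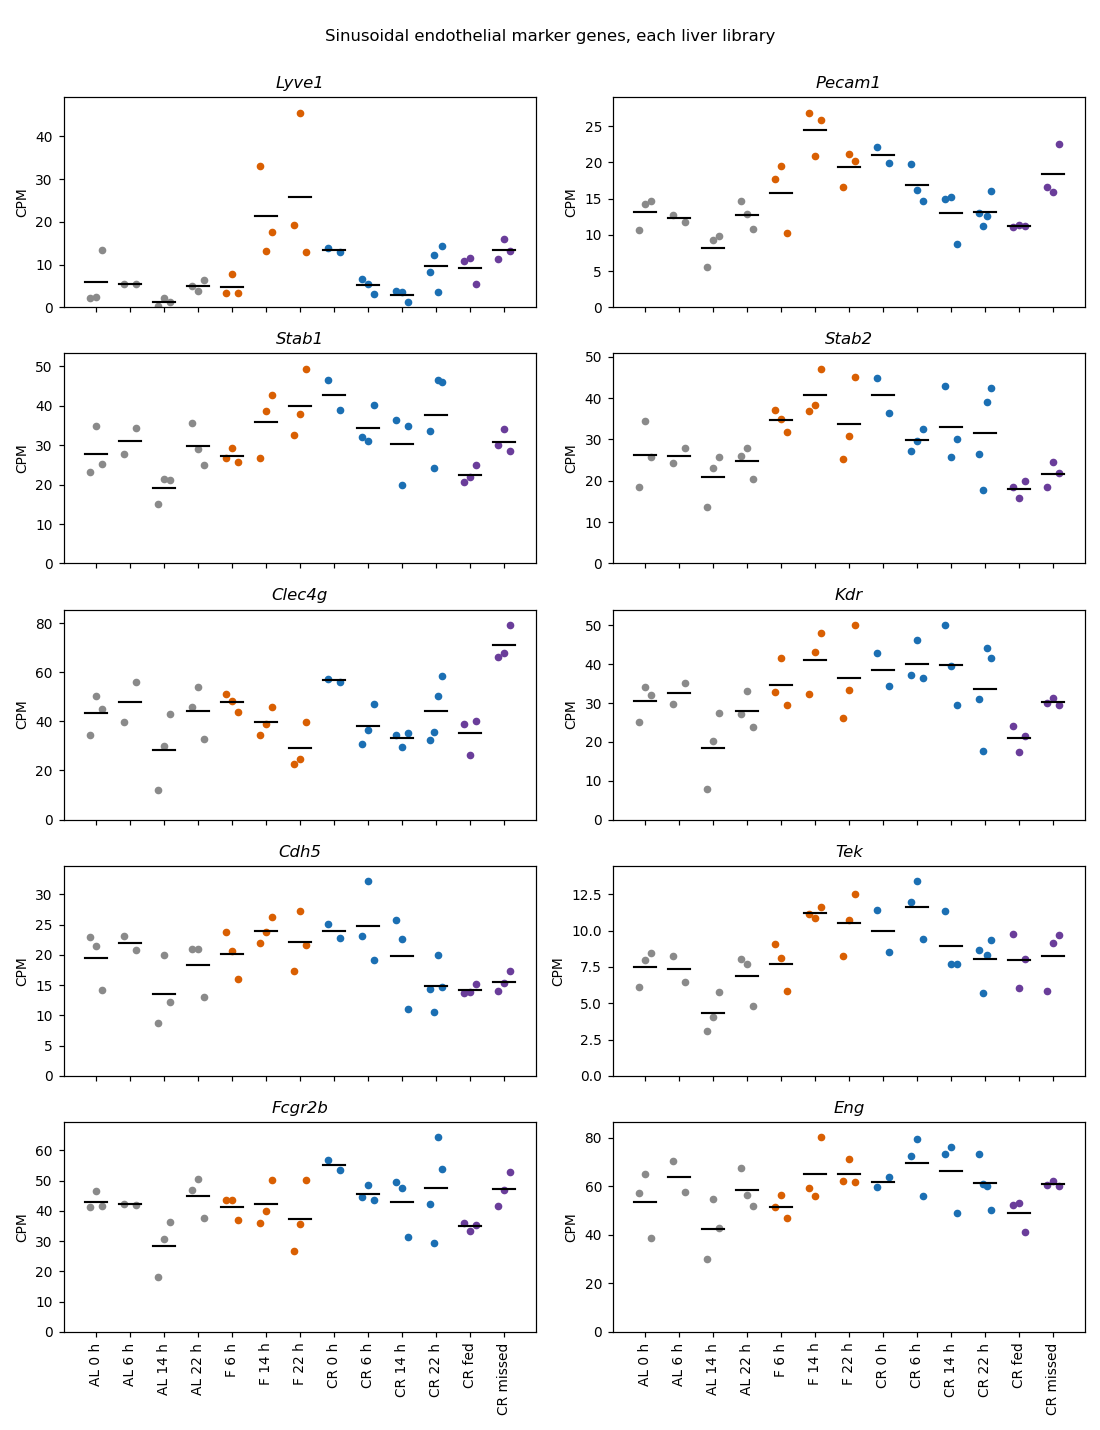
Level of each of the 10 genes in CPM (linear axes from 0) in every library, by group; dots are libraries and black bars group means. Grey marks AL, orange fasted (F), blue CR and purple the fed and missed-meal CR livers. Lyve1 ranged most widely, from 0.321 CPM in an AL liver at 14 h to 45.5 CPM in a fasted liver at 22 h.

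Fasted against AL livers at 14 h gave the most calls among the members. At that time 8 of the 10 were higher in fasted livers and none lower (edgeR's quasi-likelihood test, Benjamini-Hochberg adjusted p at or under 0.05), beside 24.5% of all tested genes called in either direction and 11.8% called higher. The median log2 fold change of the 10 was 0.93, against -0.04 over all genes. The AL livers at 14 h were low among the groups. Summed CPM of the 10 averaged 185 in them, the lowest group mean, and 346 in the fasted livers. In AL livers at 0, 6 and 22 h the sum averaged 271, 290 and 273. In bulk liver, more RNA of these genes per cell and more cells of this type cannot be told apart.

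Lyve1, the hyaluronan receptor, rose most. In counts scaled to library size (CPM), it measured 0.321, 2.13 and 1.31 CPM in the 3 AL livers at 14 h and 33.1, 13.2 and 17.7 CPM in the 3 fasted livers. The lowest fasted value lay well above the highest AL value. The log2 fold change was 4.07 ± 0.68 (SE; adjusted p 0.000114 by edgeR), and it lay between 3.60 and 4.70 when each library was left out in turn and under the other settings. Pecam1, the junctional adhesion molecule, measured 5.52, 9.29 and 9.87 CPM in AL and 26.8, 20.8 and 25.9 CPM in fasted livers. These groups did not overlap either, and the log2 fold change was 1.57 ± 0.24 (adjusted p 4.06e-05 by edgeR).

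The growth factor receptors followed. Tek measured 3.11, 4.08 and 5.78 CPM in AL livers and 11.2, 10.9 and 11.6 CPM in fasted livers (log2 fold change 1.37 ± 0.27, adjusted p 0.000505 by edgeR). The fasted values were within 1 CPM of each other. Kdr measured 7.87, 20.2 and 27.4 CPM in AL and 32.4, 43.1 and 48.0 CPM in fasted livers (1.15 ± 0.31, adjusted p 0.00771), with the AL replicate 1 value far below the rest. Eng rose least of those called, from 29.9, 54.6 and 43.0 CPM to 59.1, 56.0 and 80.1 CPM (0.61 ± 0.21, adjusted p 0.0311), and its groups were separated by a narrow gap.

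Of the scavenger receptors, Stab1 measured 15.1, 21.5 and 21.1 CPM in AL and 26.7, 38.6 and 42.7 CPM in fasted livers (0.90 ± 0.24, adjusted p 0.00628). Stab2, its paralogue, measured 13.8, 23.1 and 25.8 CPM in AL and 36.8, 38.4 and 47.1 CPM in fasted livers (0.96 ± 0.27, adjusted p 0.00921). Neither receptor's groups overlapped in CPM. Cdh5, which encodes VE-cadherin, measured 8.73, 19.9 and 12.2 CPM in AL and 22.0, 23.8 and 26.2 CPM in fasted livers (0.82 ± 0.28, adjusted p 0.034). The remaining members were not called. Fcgr2b, the inhibitory Fc receptor, had a log2 fold change of 0.57 ± 0.24 (adjusted p 0.0782) and Clec4g one of 0.49 ± 0.29 (adjusted p 0.231), with overlapping groups.

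These calls were not equally firm. Lyve1, Pecam1, Stab1 and Tek were called in each of 13 fits, and only those 4 were called without AL replicate 1, the lowest of the AL livers at 14 h in all 10 genes. The fits all used counts, and the Stab1 difference depended on the measure. On the authors' rescaled TPM, Stab1 overlapped at 14 h, with 9.49 to 12.4 in AL and 8.12 to 13.3 in fasted livers. Stab2 did not, with 2.38 to 4.48 and 6.50 to 8.24. Without AL replicate 3, Cdh5 and Eng lost their calls and Clec4g and Fcgr2b gained them. Cdh5 also lost its call without any 1 of the fasted replicates, and Eng without fasted replicate 3. Libraries also differed in how deviations from the gene mean followed transcript length. The rank correlation across genes was -0.305, -0.0114 and -0.501 in the AL livers at 14 h and 0.257, 0.332 and 0.321 in the fasted livers. With that trend removed, 6 members were called, but they were partly different genes. Lyve1, Pecam1, Stab1 and Tek kept their calls, the 4 genes Stab2, Kdr, Cdh5 and Eng lost them, and the short genes Clec4g (1.01, adjusted p 0.0119) and Fcgr2b (0.79, adjusted p 0.0285) gained them. What the trend contributes to the fold changes was not tested beyond this setting.

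**Figure D2:**
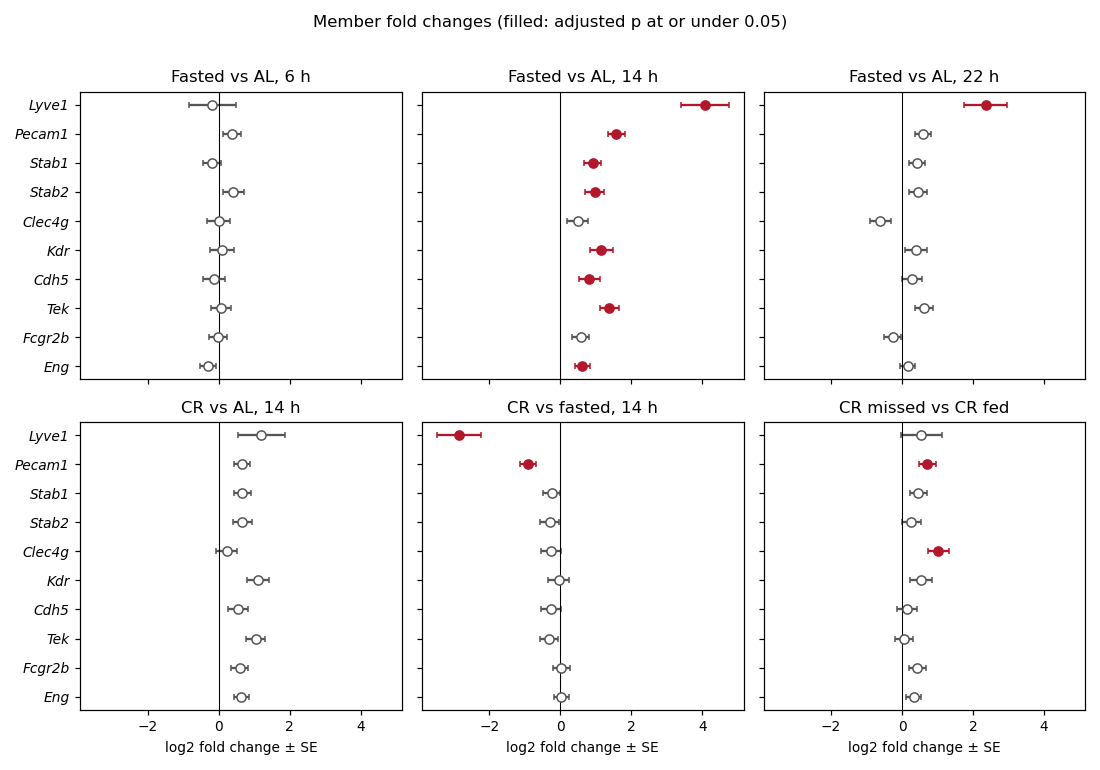
Log2 fold change of each member with its standard error in 6 comparisons; filled red points passed an adjusted p of 0.05 in edgeR. At 14 h all 10 points lie above 0 for fasted against AL livers, with Lyve1 at 4.07, and at 6 h none was called.

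Of 45 other liver endothelial genes, 18 were called higher in fasted livers at 14 h and none lower, beside the 11.8% of all genes called higher. A total of 38 had a positive log2 fold change, and the median was 0.65. Flt1, a VEGF receptor that also acts as a decoy, went from a mean of 3.04 to 11.2 CPM (1.88 ± 0.30, adjusted p 7.87e-05 by edgeR), and Flt4, the receptor for VEGF-C, from 8.36 to 25.6 CPM (1.61 ± 0.29). Cd93, a transmembrane glycoprotein of endothelial and myeloid cells, went from 1.96 to 7.61 CPM (1.95 ± 0.34). Robo4, an endothelial guidance receptor, went from 5.50 to 12.7 CPM (1.21 ± 0.23). Without AL replicate 1 the count was 13 higher and 1 lower, and with the length trend removed it was 13 higher.

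A list of ligands, partner receptors and other genes linked to KDR, TEK and ENG was mixed. Of 19 tested from a list of 21, 4 were called higher and 2 lower in fasted livers at 14 h, beside 24.5% of all genes called in either direction. Gdf2, which encodes BMP9, the ligand bound by endoglin, was higher (14.1 to 24.4 CPM, log2 fold change 0.78 ± 0.22), as was the TGF-beta receptor Tgfbr1 (18.8 to 32.0 CPM, 0.76 ± 0.23). Neither of the lower genes is a direct ligand or partner receptor of KDR, TEK or ENG. Vegfb, a ligand of FLT1, was lower (13.6 to 5.36 CPM, log2 fold change -1.34 ± 0.28), and so was Id3, a transcriptional regulator induced by BMP signals (83.3 to 29.3 CPM, -1.51 ± 0.39). Without AL replicate 1, or with the length trend removed, 1 of this list was higher and 2 lower.

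Markers of other liver cells were measured beside these. The shares to set their calls against are 24.5% of all genes called in either direction and 11.8% called higher. Summed hepatocyte markers were 148290 to 157963 CPM in AL and 104650 to 128692 CPM in fasted livers at 14 h, without overlap. Most of this sum was Alb, at 100335 to 109846 CPM in AL and 63363.5 to 77138.2 CPM in fasted livers, which was not called. Of 10 such genes, Tat and Cps1 were higher and Ttr and Serpina1c lower. Of 12 Kupffer cell markers, Cd163 (9.97 to 30.7 CPM, log2 fold change 1.62 ± 0.33) and Marco (4.66 to 18.3 CPM, 1.96 ± 0.63) were higher. The sum of the 12 overlapped, at 287 to 471 CPM in AL and 386 to 569 CPM in fasted livers, while the Kupffer marker Clec4f itself was 75.8 to 105 CPM in AL and 107 to 136 CPM in fasted livers. Of 11 stellate cell markers, Reln was higher (0.84 ± 0.24), and the sums overlapped (321 to 519 and 426 to 607 CPM). Single stellate markers were mixed, as 5 of the 11 had a positive log2 fold change and the median was -0.01. The stellate marker Lrat was not called but lay lower in fasted livers. It measured 14.12 to 17.54 CPM in AL and 10.58 to 12.97 CPM in fasted livers, without overlap. Of 8 lymphocyte markers, Nkg7 was lower. None of 6 cholangiocyte markers or 5 erythroid genes was called in this comparison, and the cholangiocyte marker Krt19 was at 0 in 1 fasted liver. The part of these other cells in the endothelial values was not tested.

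**Figure D3:**
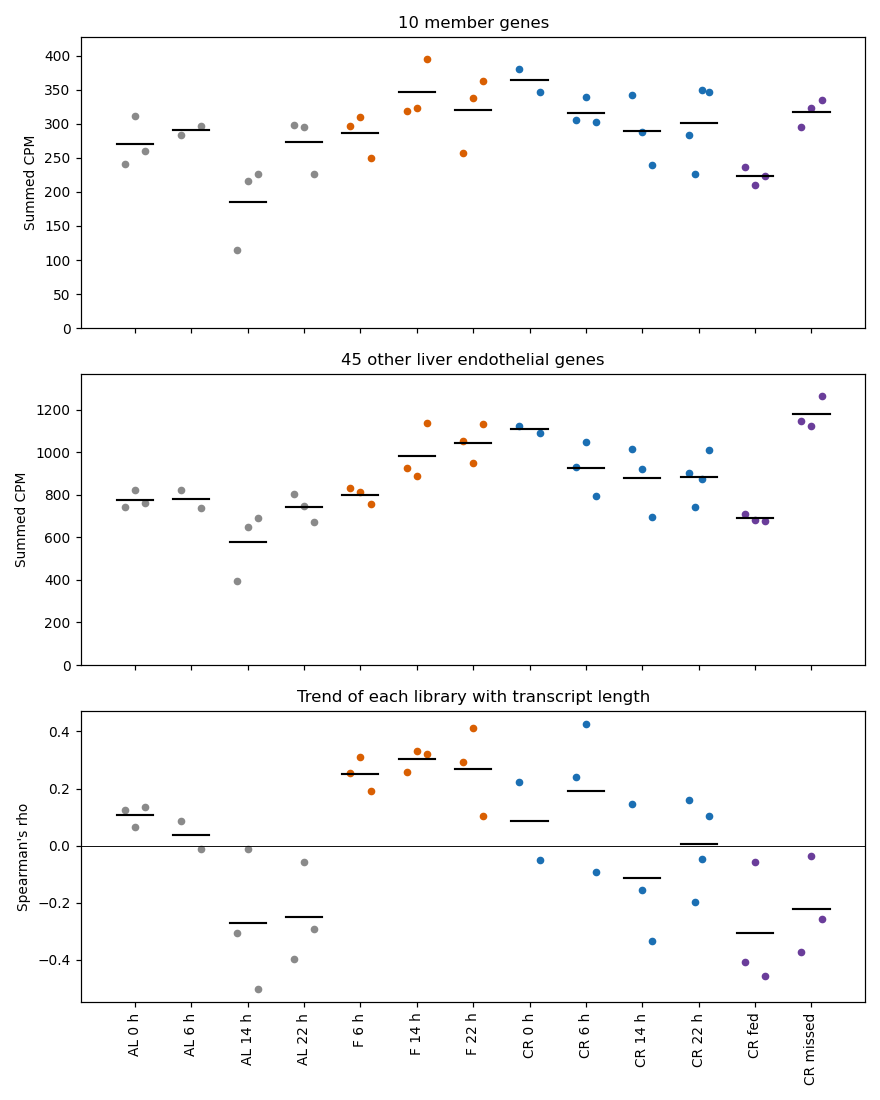
Summed CPM of the 10 members (top) and of 45 other liver endothelial genes, Cd36 included (middle), and the rank correlation of each library's deviations with transcript length (bottom), per library with group means as bars. AL livers at 14 h had the lowest group mean of the member sums, with libraries at 115 to 226 CPM that overlapped those of fed CR livers, and negative length correlations; fasted livers had positive ones.

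At 22 h Lyve1 alone was called among the members. It measured 4.96, 3.82 and 6.33 CPM in AL and 19.2, 45.5 and 12.9 CPM in fasted livers (log2 fold change 2.36 ± 0.60, adjusted p 0.0107 by edgeR), beside 11.5% of all genes called and 6.06% called higher. The groups did not overlap, but without fasted replicate 2, the highest, the adjusted p was 0.0964 at a log2 fold change of 1.69. Pecam1 and Tek were not called, with log2 fold changes of 0.60 ± 0.23 (adjusted p 0.0874 by edgeR) and 0.62 ± 0.26 (adjusted p 0.116). Clec4g and Fcgr2b had negative ones, -0.61 ± 0.29 and -0.26 ± 0.24, which were not called. The median of the 10 was 0.40, against -0.03 over all genes.

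Of the 45 other endothelial genes, 5 were called higher at 22 h and none lower, beside 6.06% of all genes called higher and 11.5% in either direction. Cd36, a fatty acid transporter of endothelium that hepatocytes can also make, went from 42.7 to 259.5 CPM (2.60 ± 0.43, adjusted p 0.000344 by edgeR). Cd93 (1.24 ± 0.33), Robo4 (0.73 ± 0.22), Notch1 (0.63 ± 0.21) and Dll4 (0.93 ± 0.31) were the others, Dll4 being named after its value was seen. Without AL replicate 3 the count was 1, and with the length trend removed 1 was higher and 1 lower. Among the listed genes linked to KDR, TEK and ENG, 3 of 19 were called higher and 2 lower. Vegfb (-1.40 ± 0.28) and Id3 (-1.90 ± 0.39) were again lower. Bmpr2, a BMP receptor, was higher (25.2 to 42.7 CPM, 0.76 ± 0.24, adjusted p 0.0401 by edgeR), as was Tgfbr2 (0.96 ± 0.31), named after its value was seen. The remaining higher gene, Svep1, a large extracellular protein, had 0, 1 and 0 rounded expected counts in the AL livers and 14, 7 and 10 in the fasted livers (adjusted p 0.0312 by edgeR). The summed counts of 31 against 1 give a ratio of 33.8 per library total, with an exact 95% counting interval of 5.63 to 1376, so its size is poorly determined. Cd163 (1.47 ± 0.32) and Reln (0.72 ± 0.24) were again higher among Kupffer and stellate markers, and the hepatocyte markers Serpina1c (-1.16 ± 0.26) and Ttr (-0.72 ± 0.23) again lower.

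At 6 h no member differed between fasted and AL livers at the threshold (0 by edgeR, 0 by DESeq2), beside 2.34% of all genes called by edgeR. None had an unadjusted p under 0.05, beside 1984 of 13786 genes. Fold changes ran from -0.31 for Eng to 0.41 for Stab2 on the log2 scale. Lyve1 measured 3.30, 7.82 and 3.38 CPM in the fasted livers and 5.45 and 5.50 CPM in the 2 AL livers. A test of whether the fasted-minus-AL difference changed over 6, 14 and 22 h called no member by edgeR (0.0653% of all genes; 6 members at an unadjusted p under 0.05) and 1 by DESeq2. Lyve1 had the lowest adjusted p, 0.146. The larger count at 14 h than at 6 or 22 h is therefore not shown to be a change over time.

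CR livers did not show called differences from AL livers in these genes. At 0 h no member was called by edgeR (0.479% of all genes) or by DESeq2. An unadjusted p under 0.05 was found for 3 members, beside 1483 of 13786 genes. All 10 fold changes were positive, against 48.5% over all genes, with a median of 0.40 on the log2 scale. Lyve1 measured 14.0 and 12.8 CPM in CR and 2.25, 2.30 and 13.4 CPM in AL livers. The highest AL value is replicate 3, which was closest to another diet, and without it the log2 fold change of 1.16 ± 0.64 became 2.56 with an adjusted p of 0.0397 by edgeR. At 6 h no gene of the table was called (0% of all genes, 568 genes at an unadjusted p under 0.05), and 1 member, Tek, had an unadjusted p under 0.05, with 0 by DESeq2. At 22 h no member was called by edgeR or DESeq2, beside 4.88% of all genes called by edgeR. None had an unadjusted p under 0.05, beside 2936 of 13786 genes.

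At 14 h CR livers stood between AL and fasted livers for several members. No member was called against AL by edgeR (0.0218% of all genes) and 1, Tek, by DESeq2. An unadjusted p under 0.05 was found for 7 members, beside 1330 of 13786 genes. All 10 fold changes were positive, against 49.1% over all genes, with a median of 0.65. Kdr measured 50.0, 39.6 and 29.5 CPM and Tek 11.3, 7.68 and 7.72 CPM in CR livers, both above all 3 AL values (1.10 ± 0.31, adjusted p 0.198, and 1.04 ± 0.26, adjusted p 0.167, by edgeR). Without CR replicate 3 and the other libraries closest to another diet, 4 members were called higher in CR livers, Pecam1, Kdr, Tek and Eng, and without CR replicate 3 alone 1 was called. Whether the change between CR and AL varied over 0, 6, 14 and 22 h was also tested, with no member called by edgeR (0.442% of all genes), by DESeq2 or at an unadjusted p under 0.05.

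Lyve1 and Pecam1 set CR apart from fasted livers at 14 h. Lyve1 measured 3.82, 3.68 and 1.29 CPM in CR against 33.1, 13.2 and 17.7 CPM in fasted livers (log2 fold change -2.86 ± 0.62, adjusted p 0.00205 by edgeR). Pecam1 measured 15.0, 15.2 and 8.67 CPM against 26.8, 20.8 and 25.9 CPM (-0.92 ± 0.23, adjusted p 0.00611), and lost its call without CR replicate 3 (adjusted p 0.0555). Neither gene's groups overlapped, and the background was 17.1% of genes called and 7.97% called lower. The other 8 members had log2 fold changes from -0.33 to 0.03 with adjusted p of 0.408 or more. The fasted livers are the ones already set against AL above, so the comparisons share them. At 6 h (6.8% of all genes) and 22 h (9.44%) no member was called between CR and fasted livers by edgeR or DESeq2. At an unadjusted p under 0.05 were 2 members at 6 h, beside 2880 of 13786 genes, and 4 at 22 h, beside 3454. At 22 h Lyve1 had a log2 fold change of -1.43 ± 0.53 (adjusted p 0.0818).

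The missed meal gave a different leading gene. In CR livers at ZT18, Clec4g measured 39.0, 26.2 and 40.0 CPM after a meal and 66.2, 67.9 and 79.2 CPM after a missed meal (log2 fold change 1.02 ± 0.29, adjusted p 0.0201 by edgeR). All missed-meal values lay far above the fed ones, and the missed-meal mean of 71.1 ± 7.05 CPM (SD, n = 3) was the highest of the 13 groups. Pecam1 measured 11.1, 11.4 and 11.1 CPM after a meal and 16.6, 15.9 and 22.6 CPM after a missed one (0.71 ± 0.23, adjusted p 0.0397). These 2 of 10 members stand beside 12.5% of all genes called and 6.34% called higher. The Clec4g call was lost without fed replicate 2 (adjusted p 0.0946) or missed-meal replicate 3 (adjusted p 0.0845), and the Pecam1 call held in 1 of 6 fits that left out a library.

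Lyve1, which led under fasting, was not called here. It measured 10.9, 11.4 and 5.41 CPM after a meal and 11.3, 15.9 and 13.2 CPM after a missed meal (0.54 ± 0.58, adjusted p 0.604). Kdr, Stab1, Fcgr2b and Eng were not called either, with log2 fold changes of 0.52, 0.46, 0.43 and 0.32. Of the other endothelial genes 8 of 45 were higher and none lower, beside 6.34% of all genes called higher and 12.5% in either direction. The count of higher genes was 4 in each fit without 1 library. Erythroid genes moved too. Of 5, 4 were higher, and their sum was 947 to 2342 CPM in fed and 4670 to 14416 CPM in missed-meal livers. The part of blood cell RNA in these values was not tested. Kupffer sums overlapped, at 179 to 480 and 229 to 461 CPM, and stellate sums did not, at 418 to 473 and 552 to 619 CPM. Single stellate markers were mixed, with 2 of 11 called higher and 1 lower. Of the 11, 6 had a positive log2 fold change, and the median was 0.03.

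**Figure D4:**
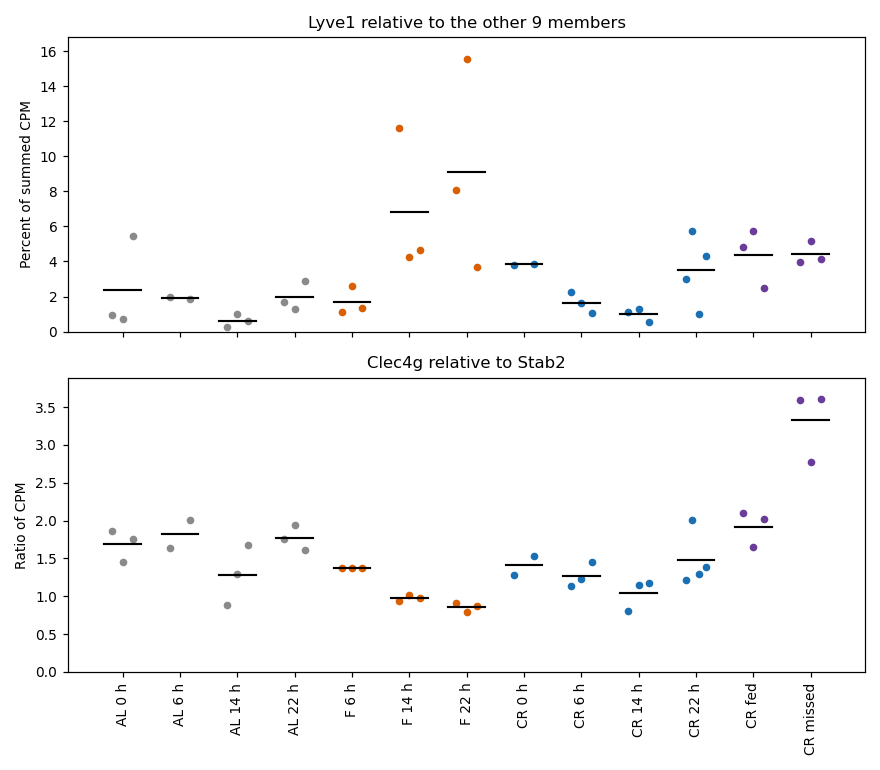
Lyve1 as a percentage of the summed CPM of the other 9 members (top) and the ratio of Clec4g to Stab2 CPM (bottom), per library, with group means as bars. Fasted livers at 14 and 22 h reached 3.69% to 15.6% for Lyve1, and missed-meal livers had the highest ratios of Clec4g to Stab2.

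Ratios between members were set side by side as well. Lyve1 made up 0.281% to 1.00% of the summed CPM of the other 9 members in AL livers at 14 h and 4.23% to 11.6% in fasted livers, with no overlap. At 22 h these ranges were 1.31% to 2.88% and 3.69% to 15.6%. The ratio of Clec4g to Stab2 was 0.891 to 1.67 in AL and 0.935 to 1.02 in fasted livers at 14 h, and 1.61 to 1.94 against 0.793 to 0.906 at 22 h. In CR livers it was 1.65 to 2.10 after a meal and 2.78 to 3.60 after a missed one. Fasted livers at 22 h and missed-meal livers thus lay on opposite sides of their controls in this ratio, at different hours and diets. Clec4g is the shortest member and Stab2 the longest (length percentiles 11.8 and 97.7), and libraries differed in their trend with transcript length. The group mean of that trend was -0.248 in AL and 0.270 in fasted livers at 22 h. In CR livers it was -0.307 after a meal and -0.221 after a missed one. The part of this trend in the ratio of Clec4g to Stab2 was not tested. These ratios were chosen after the values were seen and carry no test.

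Over all 13 groups, 7 of 10 members differed (edgeR, 52.8% of all genes called), all but Cdh5 (adjusted p 0.063), Eng (0.134) and Fcgr2b (0.153). AL livers at 14 h had the lowest mean of any group for 9 of the 10 genes, the exception being Stab2, lowest in fed CR livers (18.1 ± 1.99 CPM, n = 3). The highest group differed between genes. It was fasted at 22 h for Lyve1 (25.9 ± 17.3 CPM), fasted at 14 h for Pecam1, Stab2 and Kdr, CR at 6 h for Tek, Cdh5 and Eng, CR at 0 h for Stab1 and Fcgr2b, and the missed meal for Clec4g. The ratio of the highest to the lowest mean was 20.6 for Lyve1, 2.98 for Pecam1 and 1.63 for Eng, the smallest.

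The order of the Lyve1 means started with AL 14 h (1.25 ± 0.907 CPM) and CR 14 h (2.93 ± 1.42 CPM). Next came fasted 6 h (4.83 ± 2.59), AL 22 h (5.03 ± 1.26), CR 6 h (5.10 ± 1.80), AL 6 h (5.47 ± 0.0382) and AL 0 h (5.99 ± 6.44), close together and with overlapping libraries. Fed CR (9.23 ± 3.32), CR 22 h (9.60 ± 4.78), CR 0 h (13.4 ± 0.797) and the missed meal (13.5 ± 2.34) formed a middle range. Fasted 14 h (21.3 ± 10.5) and fasted 22 h (25.9 ± 17.3) had the highest means and overlapped each other. They also overlapped the middle range. Their lowest libraries, at 13.2 and 12.9 CPM, lay within the missed-meal values of 11.3 to 15.9 CPM.

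Within a diet, time was called for few members. In AL livers none passed by edgeR or DESeq2 (0.276% of all genes; 5 members at an unadjusted p under 0.05). In CR livers Lyve1 passed (adjusted p 0.0435 by edgeR, 20.6% of all genes), lowest at 14 h and highest at 0 h. The call was lost with a replicate block, though no label pairs the libraries. It held in 2 of 12 fits without 1 library, those without CR 6 h replicate 1 or CR 22 h replicate 3. In fasted livers Lyve1 also passed (adjusted p 0.0475, 2.86% of all genes), and the call held in 2 of 9 such fits, those without replicate 2 at 14 h or replicate 3 at 22 h.

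Across the 38 libraries the members tracked each other unevenly. The median Spearman's rho over pairs of members was 0.51, from -0.06 between Clec4g and Eng to 0.85 between Stab2 and Kdr. Kdr was closest to the rest (median 0.67 with the other 9), and Lyve1 (0.23) and Clec4g (0.29) were the most distant. The summed member CPM correlated with the sum of the other endothelial genes at 0.81, with the erythroid sum at 0.41, the stellate sum at 0.30, the Kupffer sum at 0.29 and the hepatocyte sum at -0.25. The sum of the other endothelial genes includes Cd36. At 22 h the mean of Cd36 was 42.7 CPM in AL and 259.5 CPM in fasted livers, within sums of 741 and 1043 CPM. With the length trend of the libraries, the summed member CPM correlated at 0.51. For single members that value ran from -0.12 for Clec4g, the shortest, to 0.68 for Cdh5. All these values share libraries and scaling and are descriptions without a test.

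The genes most alike to the members, among 8966 with a mean of at least 5 CPM and outside all lists, were ranked by rho with the members' mean pattern over the 38 libraries. Arhgap31 (a GTPase-activating protein for Cdc42 and Rac) came first at 0.89, with Adam23 at 0.88, Adgrf5 (an adhesion G protein-coupled receptor) at 0.84, Plxnc1 (a semaphorin receptor) at 0.83, Map3k3 (a MAP kinase kinase kinase) at 0.81, Cyyr1 and Arhgap23 at 0.81 and Hip1 at 0.80.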

How the data were processed

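RNA of 38 mouse livers was measured. Per the labels' protocols, polyadenylated RNA was read in non-directional libraries, reads were aligned with Bowtie to protein-coding genes of GRCm38, and the deposited expected counts were estimated with RSEM 1.2.3. The other deposited table holds a signal, namely TPM values after EBSeq normalization by the authors (stated in the labels), and served only to describe levels between genes. The labels name no batch. Overlapping genes on opposite strands cannot be told apart in such libraries.

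Expected counts were rounded, and members were matched by symbol. All 38 libraries entered 1 model with 13 groups in edgeR 4.0.16 (R 4.3.3), with filterByExpr, TMM scaling and the quasi-likelihood F test. Benjamini-Hochberg adjustment ran over 13786 genes in each comparison (threshold 0.05). CPM use the TMM-scaled library sizes, and the SE was obtained from the log2 fold change and its F statistic (absolute value over root F). Reads carry no molecular identifiers. The pipeline was tested on simulated data that had the same spread for every gene. They held no length trend and no doubted libraries, so that test does not cover these.

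Alternatives were DESeq2 size factors, the DESeq2 1.42.0 test, no filter beyond a total of 1 count, a replicate block, removal of each library's trend with transcript length (lowess span 0.3), separate fits with no libraries but those compared, and the omission of 1 library at a time. Settings without the doubted libraries were added after seeing the data. Those libraries were found from 15 clock genes or from the 2000 most variable genes. The text names the 10 members, up to 4 called genes with the smallest p of each other list in each fasted against AL comparison, fixed markers of other cells and the 8 most alike genes. The members and lists were chosen with earlier results of these data known. Group labels were taken from the sample titles.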

Additional observations from a re-analysis of the deposited data

How the results depend on the processing

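Of the alternatives, none reversed a called fold change of a member. The count of members called higher in fasted livers at 14 h was 8 with DESeq2 size factors, no filter, the DESeq2 test and the replicate block, 6 with the length trend removed, 5 in a fit to the compared libraries alone (which leaves fewer residual degrees of freedom), and 4 to 8 when each library was left out. At 22 h leaving out libraries gave 0 to 1. For CR against AL livers it gave 0 to 1 at 0 h and 0 to 1 at 14 h, and without the libraries closest to another diet the counts were 1 at 0 h and 4 at 14 h. The DESeq2 test called 1 at 14 h and 1 for the change of the fasted effect over time. For CR against fasted livers leaving out libraries gave 1 to 2 at 14 h, and without the libraries closest to another diet the counts were 1 at 14 h and 1 at 22 h (Cdh5). For the missed meal the range was 0 to 2, with 1 under no filter and 1 without the library closest to another diet. The change over time gave 0 to 1 in CR and 0 to 1 in fasted livers when libraries were left out, 2 in CR without the libraries closest to another diet, and 1 in AL without both kinds of doubted library. The causes were not tested.

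Libraries with the same replicate number were not treated as pairs, since no label ties them together and not every pair deviated together. The mean correlation of deviations was 0.0386 for the same number and -0.0177 for other numbers, 57 of 211 same-number pairs were over 0.1, and 22 of 38 libraries correlated best with one of their own number, a hint of some sharing that comes from the data and not from the design. With a replicate block, the time effect in CR livers was called for 0 members in place of 1, and no other count of members changed. No libraries were identical. Depth limits Lyve1 most, which had 6 counts in 1 AL liver at 14 h.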
